A study of Mus musculus with 92 samples.

Results

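The comparison described here set mouse macrophages labelled Adar1 KO against macrophages carrying a non-targeting control guide (NTC), both cultured without baricitinib. It drew on 6 of the 92 RNA sequencing libraries of the series, 3 labelled Adar KO sgRNA #1 and 3 labelled NTC, picked by guide, cell type and a dose of 0 µM in the labels. All 6 came from Cas9-expressing ER-Hoxb8 progenitors from FVB mice, heterozygous for Cas9 by the titles of the guide-carrying progenitors. The cells had received a guide, been sorted and then been differentiated into macrophages for 7 days. The labels do not give the number of lines behind the 3 libraries of a guide. A property of the line or lines that carry a guide cannot be told apart from the guide. The study asks how loss of ADAR1 changes macrophages and which of the changes depend on interferon signalling. Its dose series crosses the same guide pair with 5 concentrations of baricitinib. A separate experiment covers macrophages and undifferentiated progenitors of the same guides. It is called the earlier experiment below because it is listed before the dose series, and the labels give no dates.

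ADAR1, the product of Adar, converts adenosine to inosine in double-stranded RNA. Without that editing, the cell's own duplexes can bind MDA5 (encoded by Ifih1), which signals through Mavs to the genes of type I interferon. Secreted interferon acts through its receptor, the Janus kinases and STAT proteins on interferon-stimulated genes (ISGs), many of which encode proteins that block viruses. Inherited loss of ADAR1 function is among the causes of Aicardi-Goutières syndrome, a childhood interferon disease of brain and skin. Baricitinib inhibits Janus kinases. ER-Hoxb8 progenitors stay immature while estrogen keeps their Hoxb8 fusion protein active and mature once it is withdrawn.

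The deposited values are the authors' log2 CPM, read counts scaled to a common library total, with an offset that puts a gene without reads at -2.78. Levels below are on that scale, and differences are KO minus NTC in log2 units with the standard error of the fit and 3 libraries per group. The files hold no read totals. The steps between the lowest values put the depth at 10.6, 15.0 and 16.4 M counts for NTC and 14, 9.99 and 14.1 M for KO, if the offset stands for 2 counts. In each library 3 counts then correspond to 0.183 to 0.3 CPM. Between 13403 and 14275 genes lay above the lowest value. The 13 genes with a mitochondrial name held 0.74, 0.848 and 0.915% of CPM in the NTC libraries and 0.59, 0.528 and 0.474% in the KO libraries. Spearman correlations of the tested genes were 0.977 to 0.987 within KO, 0.975 to 0.989 within NTC and 0.927 to 0.948 between the groups. The labels do not tie a library to a culture, and the replicate numbers of the titles did not pair KO with NTC. Library names number replicate 3 differently in KO and NTC, and pairing by library name was not tested. The p values therefore measure the spread between these libraries.

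A gene was called when its adjusted p was below 0.05 and its difference at least 2 log2 units, with the variance estimated over all 33 libraries of the dose series. A library outside the 6 stands apart in that estimate. In KO replicate 2 at 0.4 µM baricitinib, Ifit1 lay at 11.78 against 0.54 and 3.03 in the other KO libraries of that dose, and Mki67 at 4.65 against 7.23 and 6.98. With this library the standard error of Ifit1 at 0 µM was 1.34, and without it 0.42. With it, 432 genes were called at 0 µM (3.87%). Without it, all 432 were kept and 443 were called, 224 higher and 219 lower. The adjusted p of Ifit1 was 0.000213 with the library and 1.83e-13 without it, and that of Adar 0.0051 and 1.05e-06. Values below keep the library in.

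Of 11152 genes tested, 432 were called (3.87%), 214 higher in the KO libraries (1.92%) and 218 lower (1.95%). Genes called higher had a median difference of 2.97, genes called lower one of -2.45, and all genes one of -0.02. Without the limit on size, 2816 genes passed the test, 1286 upward and 1530 downward. The 3 KO values did not overlap the 3 NTC values in 4696 genes (42.1%), among them 210 of the genes called higher and 214 of those called lower. Genes called higher included many of the interferon response, while genes called lower included the adhesion gene Ncam2, scavenger receptors, the chemokine receptor Ccr2 and genes of the cell cycle. Members of a gene list below are given by counts and a median to be set beside these totals, and nothing is claimed to be particular to a list.

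**Figure D1:**
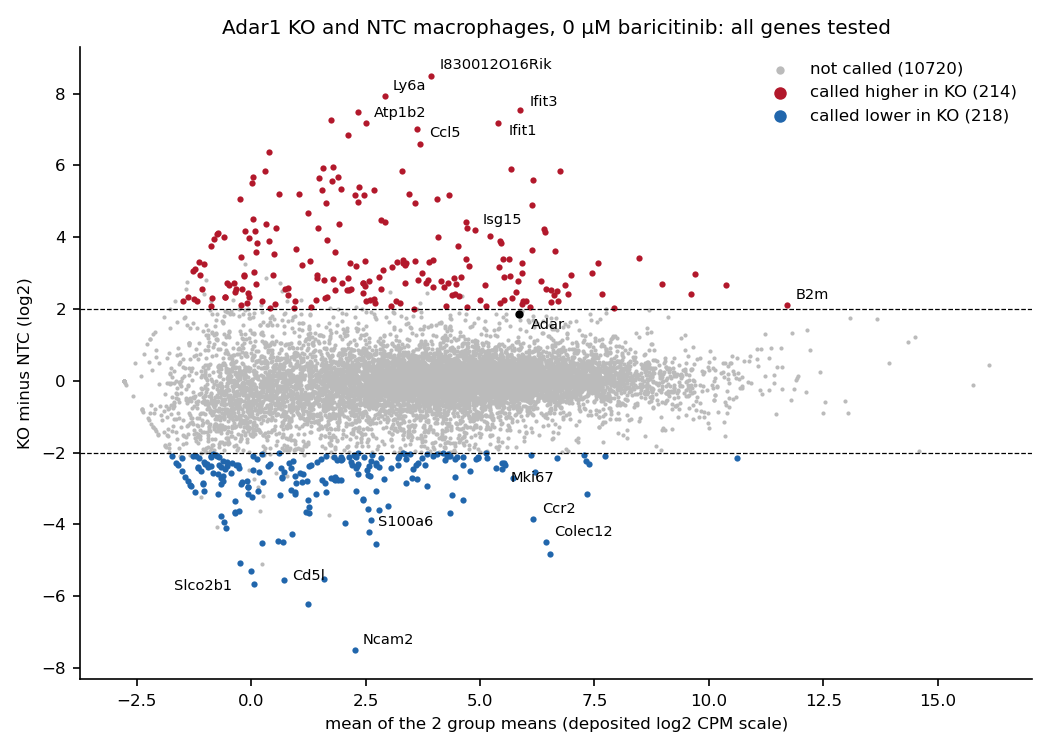
Each point is a gene, placed by the mean of its 2 group means (x, log2 CPM) and its KO minus NTC difference at 0 µM (y, log2 units), with 214 genes called higher, 218 called lower and 10720 not called. Dashed lines mark differences of 2, and Adar (1.85) lies just inside them.

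Adar, the gene the guide targets, had higher RNA in the libraries labelled Adar1 KO. Its level was 7.42, 6.52 and 6.37 in KO and 5.12, 4.94 and 4.69 in NTC. Every KO value exceeded every NTC value, with a difference of 1.85 ± 0.48 (SE, adjusted p 0.0051), under the size limit for a call. Reads summed over a gene measure neither a small insertion or deletion nor the protein, so this value checks nothing about the edit. The study checked editing separately, by TIDE analysis of Sanger sequence across the cut site of each Adar1 guide. A long form of ADAR1 is itself made from an interferon-responsive promoter, and gene-level sums do not separate it from the constitutive form. Of the 5 members of the ADAR family list, Adar and Adarb2 were tested and neither was called.

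Macrophage identity was checked first. Csf1r, the receptor for the growth factor that macrophages need, lay at 10.62, 10.65 and 10.59 in KO and at 10.58, 10.69 and 10.41 in NTC. These ranges overlapped, with a difference of 0.06 ± 0.22 (adjusted p 0.87). Cd68, a protein of endosomes and lysosomes, had values of 10.92, 10.96 and 11.12 in KO beside 11.21, 11.17 and 11.35 in NTC, and a difference of -0.25 that did not pass the test (adjusted p 0.175). Cd14, the co-receptor for lipopolysaccharide, was lower at 10.54, 11.08 and 11.39 against 11.78, 12.05 and 11.94, without overlap. Its difference was -0.92 ± 0.17 (adjusted p 0.000207). Of the 13 tested identity genes that the study names, none was called by limma, 5 passed its test without the size limit (2 upward, 3 downward), and their median was 0.07. The list is taken from the study, so it is not counted as independent evidence of direction. Csf1r was named after its values were seen.

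Markers of neutrophils, mast cells, dendritic cells, lymphocytes, progenitors and stromal cells were mostly low. Of these, S100a8, Cxcr2, Itgax, Zbtb46, Cd34, Acta2 and Pecam1 lay above 3 counts in all 6 libraries. The monocyte and osteoclast-like lists, described further below, were not low. Monocyte markers summed to 1280, 1210 and 1320 CPM in KO and 1300, 1610 and 1530 CPM in NTC. Osteoclast-like markers summed to 323, 229 and 235 CPM in KO and 120, 102 and 122 CPM in NTC. The mast cell list summed to at most 0.372 CPM in any of the 6 libraries and the lymphocyte list to at most 1.08 CPM, with Cd3e, Trbc1, Ncr1 and Nkg7 at 0. Neutrophil markers summed to 67.5, 70.0 and 56.5 CPM in KO and 96.3, 76.7 and 80.6 CPM in NTC, most of it S100a8, whose difference of -0.45 did not pass the test (adjusted p 0.476). Of 4 tested neutrophil genes 1 was called higher and 2 passed the test upward. These were Lcn2 with 2.94 (adjusted p 0.000528) and Camp with 1.86 (adjusted p 0.0116), at no more than 1.42 CPM in any library, and Camp was named after its values were seen. The call of Lcn2 was lost on log2(CPM+1), where the difference was 1.07. Elane and Retnlg were at 0. The dendritic cell, progenitor and stromal lists stayed at or below 15.8 CPM in every library. Of the 2 progenitor markers tested, Cd34 had a difference of 1.03 (adjusted p 0.0438, and up to 0.282 under the alternatives) with overlapping groups. The other, Spink2, named after its values were seen, had one of -1.23 (adjusted p 0.0534). The stromal marker Acta2 had a difference of -0.61 (adjusted p 0.0379, and up to 0.173 under the alternatives). In bulk samples fewer cells of a type and less RNA per cell cannot be told apart, which holds for every difference below.

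Interferon-stimulated genes were among those with the largest rises. Of the 20 tested ISGs that the study names, 18 were called higher and 19 passed the test upward, with a median of 3.76. The others were the chemokine Ccl2 with 1.26 (adjusted p 0.0387) and the exonuclease Isg20 with 2.47 (adjusted p 0.0649), both named after their values were seen. For Ccl2 the adjusted p was up to 0.111 under the alternatives. Without the KO library at 0.4 µM the adjusted p of Isg20 was 4.4e-07. They are taken from the study, so their direction is not counted as independent evidence. Their summed level was 6410, 5930 and 6440 CPM in the KO libraries and 531, 450 and 425 CPM in the NTC libraries. Ifit1 encodes a protein that binds viral RNA with an incomplete cap. It lay at 8.83, 8.96 and 9.15 in KO and at 1.83, 2.07 and 1.50 in NTC. All KO values were high and all NTC values low, a difference of 7.18 ± 1.34 (adjusted p 0.000213). Rsad2 (viperin), which makes a chain-terminating nucleotide, had levels of 7.45, 7.08 and 6.85 in KO and of -0.02, 0.38 and -0.05 in NTC. The groups stood apart by 7.02 ± 1.44 (adjusted p 0.000602). Isg15, a ubiquitin-like modifier, was at 6.74, 7.07 and 7.15 in KO against 2.72, 2.68 and 2.94 in NTC, without overlap. That difference was 4.20 ± 1.07 (adjusted p 0.00463). Ifit3 rose by 7.53 and its near copy I830012O16Rik (now Ifit3b) by 8.50, but Kallisto divides shared reads between such copies, so the split between them is uncertain.

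**Figure D2:**
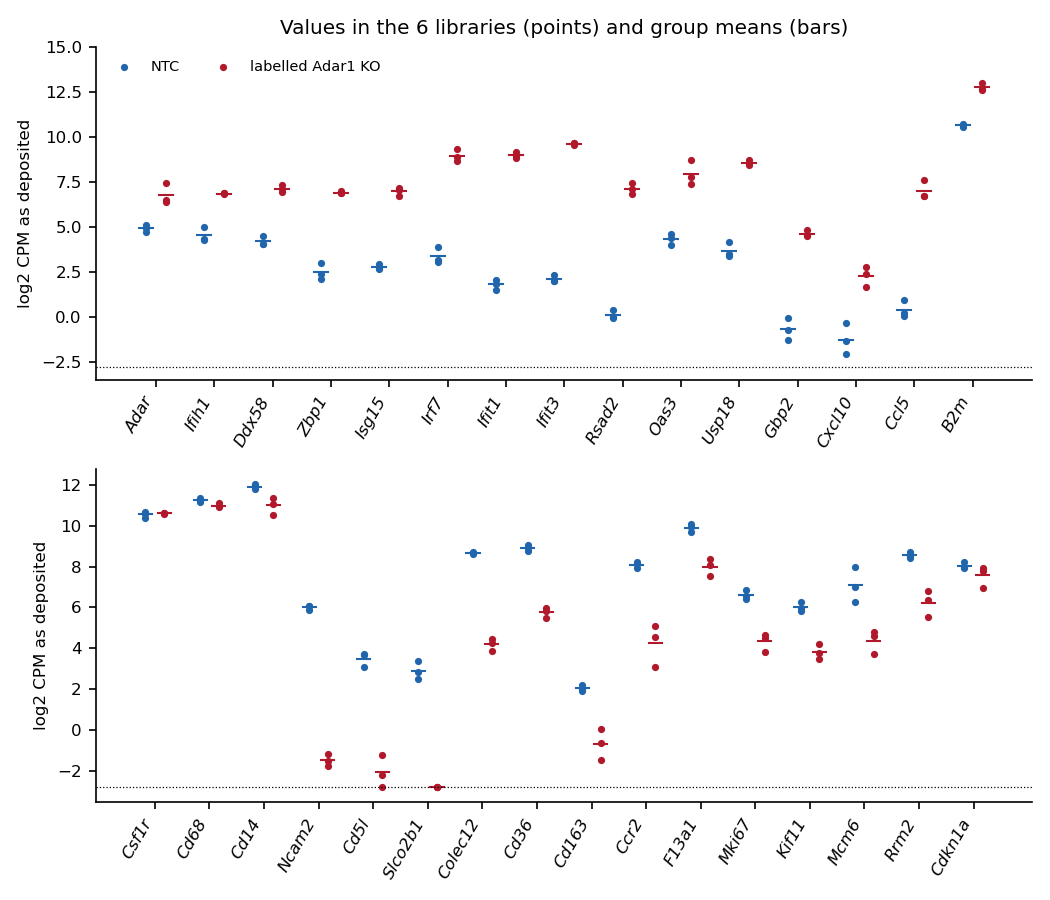
Each point is the deposited level (log2 CPM) of a gene in 1 of the 6 libraries at 0 µM, with bars at the group means and a dotted line at the lowest value. The 3 KO values of Ifit1 lie between 8.83 and 9.15 and the 3 NTC values between 1.50 and 2.07, whereas the Csf1r values of the groups overlap.

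The sequences upstream of 6 of these genes are printed because they rose and hold a core of the interferon-stimulated response element, to which STAT and IRF proteins bind. Each stretch ends at the base before the RefSeq transcript start in GRCm38.p6, written 5' to 3' on the strand of the gene, in lower case with GAAANNGAAA (or TTTCNNTTTC, its reverse complement) in capitals, where N is any base. Ifit1 is at chr19:34640744-34640888 on the plus strand, with cores 104 and 85 bases before the start. Read from the other strand, the same interval is upstream of 2010002M12Rik (now Ifit1bl2). Ifit3 is at chr19:34583384-34583528, plus strand, and a further core lies 156 bases before its start, outside the stretch. Rsad2 is at chr12:26456453-26456597, minus strand. Gbp7 is at chr3:142530191-142530335, plus strand. Isg15 is at chr4:156200819-156200963, minus strand, where 3 cores overlap one another. Pydc3, an interferon-inducible gene now called Ifi208, is at chr1:173673520-173673664, plus strand. These are descriptions and not shown to be sites of binding or causes of the change.
Ifit1: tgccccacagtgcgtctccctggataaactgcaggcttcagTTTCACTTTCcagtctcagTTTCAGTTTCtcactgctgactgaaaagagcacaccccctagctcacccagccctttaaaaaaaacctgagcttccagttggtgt
Ifit3: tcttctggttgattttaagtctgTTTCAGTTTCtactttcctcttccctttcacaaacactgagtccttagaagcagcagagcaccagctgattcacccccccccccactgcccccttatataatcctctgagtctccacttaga
Rsad2: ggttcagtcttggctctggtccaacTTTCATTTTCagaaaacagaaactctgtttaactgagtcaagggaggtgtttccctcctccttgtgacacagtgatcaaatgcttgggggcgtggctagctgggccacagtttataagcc
Gbp7: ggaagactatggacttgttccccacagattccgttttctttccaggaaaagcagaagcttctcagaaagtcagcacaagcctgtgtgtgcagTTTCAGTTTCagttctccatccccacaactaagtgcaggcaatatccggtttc
Isg15: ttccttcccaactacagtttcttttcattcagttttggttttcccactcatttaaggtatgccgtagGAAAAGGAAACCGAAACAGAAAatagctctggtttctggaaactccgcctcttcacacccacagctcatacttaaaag
Pydc3 (Ifi208): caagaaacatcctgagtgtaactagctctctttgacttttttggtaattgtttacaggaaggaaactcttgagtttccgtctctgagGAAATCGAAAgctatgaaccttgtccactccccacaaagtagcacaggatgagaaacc

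The core occurred in 1131 of 32851 windows of the annotation (3.44%), each running from 250 bases before to 50 after a transcript start. Among genes with a matched window it occurred in 350 of 8784 tested genes (3.98%), 46 of 155 called higher (29.7%), 5 of 165 called lower (3.03%) and 10 of the 15 study ISGs (66.7%). Fewer than 80% of the members of each of these sets have a window under a matching symbol, so the check is void for the sets and the shares describe the matched genes alone. None of the 3 windows of Adar holds the core, nor do those of Irf7, Ifi44, Oasl2 and Plac8. The STAT dimer site TTCNNNGAA occurred in 8.31% of tested genes, 10.3% of those called higher and 6.06% of those called lower.

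Sensors of double-stranded and Z-form RNA came next in the pathway. Of 16 tested, 3 were called higher, 2 of them study ISGs counted above, and 5 passed the test upward, with a median of 0.60. Ifih1 (MDA5) lay at 6.80, 6.85 and 6.89 in KO and at 4.98, 4.28 and 4.33 in NTC. All KO values were higher, by 2.32 ± 0.72 (adjusted p 0.0178), and the call was lost when NTC replicate 2 or NTC replicate 3 was left out (adjusted p up to 0.061). Its difference stayed between 2.19 and 2.54 over all alternatives, and without the KO library at 0.4 µM its adjusted p was 9.52e-09. Ddx58, encoding RIG-I, was at 7.32, 6.94 and 7.09 against 4.48, 4.04 and 4.07, without overlap. This gap was 2.92 ± 0.77 (adjusted p 0.00606). Zbp1, a receptor of Z-form nucleic acid that can start necroptosis, was at 6.97, 6.86 and 6.90 against 3.01, 2.08 and 2.39, again apart, by 4.42 ± 0.95 (adjusted p 0.00105). Eif2ak2 (PKR) rose by 1.34 (adjusted p 0.013) and Dhx58 (LGP2) by 1.69 (adjusted p 0.03, and up to 0.111 under the alternatives), less than the size limit. The adaptor Mavs had a difference of 0.36 (adjusted p 0.13). Eif2ak2, Dhx58 and Mavs were named after their values were seen.

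The oligoadenylate synthetases are switched on by double-stranded RNA and make a short second messenger. Of 9 tested genes on their list, 7 were called higher, 4 of them study ISGs counted above, with a median of 3.19. Oas3 lay at 8.70, 7.75 and 7.40 in KO and at 4.60, 4.36 and 3.99 in NTC, and its groups did not overlap. The difference of 3.63 ± 1.12 had an adjusted p of 0.0177, and the call was lost in 2 of the 6 fits that left out a library. Without the KO library at 0.4 µM the adjusted p of Oas3 was 1.71e-06. Oasl2 was at 8.62, 8.59 and 8.67 in KO and at 3.46, 2.71 and 2.04 in NTC, likewise apart, by 5.89 ± 1.41 (adjusted p 0.00265). Oas2 was called at 3.19 (adjusted p 0.0404), but not when any single library of the 6 was left out. Without the KO library at 0.4 µM its adjusted p was 2.74e-05. Reads shared among the Oas1 copies make their separate values uncertain.

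Antiviral effectors made up a list of 27 tested genes, of which 18 were called higher, 5 of them also study ISGs counted above, among them Ifit1, Ifit3 and Rsad2. In this list 20 passed the test upward and 2 downward, with a median of 3.27. Bst2 (tetherin), which holds budding virus at the cell surface, was at 8.93, 9.01 and 8.70 in KO and at 6.55, 6.45 and 6.35 in NTC. The groups stood apart by 2.43 ± 0.51 (adjusted p 0.00075). Mx1, a dynamin-like block to influenza virus, rose by 4.42 (adjusted p 0.00338). Ifitm3, which hinders virus entry, lay at 11.30, 11.27 and 11.32 in KO and at 11.08, 11.22 and 11.17 in NTC, a difference of 0.14 (adjusted p 0.58). Ifitm1 fell, with a difference of -1.78 (adjusted p 0.00057). Ifitm3 and Ifitm1 were named after their values were seen.

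Smaller families follow. Of 6 tested genes for the conjugation and removal of ISG15, 3 were called higher, Isg15, Herc6 and Usp18, all of them study ISGs counted above, and 5 passed the test upward, with a median of 2.18. Usp18, which removes ISG15 and dampens the interferon receptor, was at 8.46, 8.52 and 8.74 in KO and at 4.14, 3.40 and 3.49 in NTC. All its KO values were higher, by 4.90 ± 1.34 (adjusted p 0.00762). Guanylate-binding proteins, which attack the vacuoles of intracellular microbes, had 6 of 8 called higher and a median of 4.28. Gbp2 lay at 4.80, 4.52 and 4.57 in KO and at -0.74, -1.32 and -0.05 in NTC, without overlap. It rose by 5.33 ± 1.20 (adjusted p 0.00155), with reads shared among Gbp copies divided by Kallisto. Immunity-related GTPases had 6 of 8 called higher and a median of 3.57. Irgm1, a regulator of that family, was at 7.21, 7.44 and 7.34 against 4.03, 3.97 and 3.81, and the groups stood 3.39 ± 0.79 apart (adjusted p 0.00221). Iigp1, an effector GTPase, was at 0.68, 0.97 and 1.87 in KO and without reads in NTC, which makes it at least 9.66-fold higher at 3 counts per library. Among 8 tested genes of the poly-ADP-ribose polymerases and their partner Dtx3l, 2 were called higher, Parp14 and Dtx3l, and 6 passed the test upward, with a median of 1.66.

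The RNA of interferons themselves was scarce. Of 7 tested interferon and receptor genes, limma called none and 1 passed its test downward, with a median of -0.34, and the 8 interferon alpha genes listed were too low to test. Ifnb1, named after its values were seen, lay at 0.40, -0.27 and -0.22 in KO and without reads in every NTC library. The groups do not overlap, but the fitted difference of 2.75 did not pass the test (adjusted p 0.0897). Ifnb1 had a value in 13 of the alternatives, and not in the fit without the KO library at 0.4 µM. Of those 13, only weighting the libraries made it pass (adjusted p 0.000155), and the others gave up to 0.45. Ifnar1, a chain of the type I interferon receptor, was at 6.88, 6.86 and 6.94 in KO and at 7.82, 7.64 and 7.60 in NTC. Its KO values were all lower, by 0.79 ± 0.12 (adjusted p 9.02e-06), below the size limit.

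The 14 tested JAK-STAT genes had a median of 0.63. Stat2, a transcription factor downstream of the type I interferon receptor, lay at 7.79, 7.74 and 7.67 in KO and at 5.24, 4.79 and 4.80 in NTC, without overlap. It rose by 2.79 ± 0.69 (adjusted p 0.00372). Of 7 tested interferon regulatory factors, 1 was called higher. Irf7, a study ISG and the factor that amplifies interferon alpha transcription, was at 9.31, 8.87 and 8.69 in KO and at 3.86, 3.07 and 3.15 in NTC, apart by 5.60 ± 1.16 (adjusted p 0.000677). Irf9, a DNA-binding partner of STAT2 that was named after its values were seen, rose by 1.31 (adjusted p 0.02, and up to 0.0589 under the alternatives).

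Chemokines moved both ways. Of 13 tested, 3 were called higher and 1 lower, with a median of 0.95. Ccl5, which draws T cells and monocytes, was at 7.58, 6.69 and 6.74 in KO and at 0.22, 0.95 and 0.02 in NTC. The groups stood apart by 6.60 ± 1.06 (adjusted p 3.17e-05). Ccl7, a ligand of CCR2, rose by 3.19 ± 0.68 (adjusted p 0.000878), from 0.54, 1.30 and 0.26 in NTC to 3.82, 3.70 and 4.16 in KO. Cxcl10, a study ISG and an attractant of activated T cells, was at 1.64, 2.77 and 2.37 against -2.09, -0.37 and -1.36 and was called at 3.53 (adjusted p 0.0385), a call lost in 5 of the 6 fits that left out a library. Without the KO library at 0.4 µM its adjusted p was 6.17e-06. Cxcl16, a membrane-bound chemokine and scavenger receptor, was at -1.65, -0.97 and -0.87 in KO and at 2.01, 1.31 and 1.68 in NTC. It fell by 2.83 ± 0.62 (adjusted p 0.00114).

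Of 12 tested cytokine genes, 3 were called higher, Il1rn, Il18bp and Csf1, and the median was 1.54. Il1rn, the antagonist of the interleukin-1 receptor, was at 6.51, 6.25 and 6.37 in KO and at 2.98, 3.01 and 3.00 in NTC. Both groups were tight and stood 3.39 ± 0.41 apart (adjusted p 5.91e-07). Il18bp, which neutralises interleukin-18, was at 4.88, 3.45 and 3.99 in KO and at -2.78, 0.69 and -0.45 in NTC, without overlap, a rise of 4.95 ± 1.04 (adjusted p 0.000784). Csf1, the macrophage growth factor, was at 3.82, 3.45 and 3.46 against -0.78, -0.73 and -0.50, and its groups were apart by 4.25 ± 0.46 (adjusted p 8.7e-08). Tnf, a central inflammatory cytokine named after its values were seen, had a difference of 0.59 (adjusted p 0.16), and Il6, Il10 and Il12 genes were too low to test.

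Antigen presentation was counted by class. Of 20 tested class I and immunoproteasome genes, 8 were called higher and 14 passed the test upward, with a median of 1.44, and none fell. B2m, the light chain of class I molecules, was at 13.0036, 12.61 and 12.67 in KO and at 10.74, 10.55 and 10.68 in NTC. The groups were apart by 2.10 ± 0.29 (adjusted p 4.83e-06), close to the size limit and under it in 1 of the fits that left out a library. H2-K1, a classical heavy chain, was at 11.02, 10.78 and 10.68 against 8.78, 8.23 and 8.22, a rise of 2.42 ± 0.32 (adjusted p 1.96e-06) without overlap. Heavy-chain genes share sequence, so reads may be divided among them. Of 6 tested class II genes, 2 passed the test upward and 2 downward, with a median of 0.27. The upward ones were H2-DMb1 with 0.71 (adjusted p 0.00093) and H2-DMb2 with 0.96 (adjusted p 0.00137), which encode chains of a peptide-loading molecule, the latter named after its values were seen. H2-Ob was called lower, and its values were -1.69, -1.96 and -2.78 in KO and 0.30, 0.33 and 0.14 in NTC, a call lost on log2(CPM+1), where the difference was -0.91. Cd74, the invariant chain, was at 4.71, 5.21 and 5.41 in KO and at 5.56, 5.87 and 5.89 in NTC. It was lower in all KO libraries by 0.67 (adjusted p 0.0409, and up to 0.225 under the alternatives).

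Stress and death genes were counted list by list, to be set beside the 3.87% called among all genes tested. Of 17 tested genes of the integrated stress response, 1 was called higher, 5 passed the test upward and 2 downward, with a median of 0.89. Ddit3 (CHOP), a transcription factor of that response, was at 7.07, 6.84 and 6.98 in KO and at 4.22, 3.95 and 4.04 in NTC. The groups stood 2.89 ± 0.50 apart (adjusted p 9.32e-05). Of 26 tested cell death genes, 1 was called higher, Xaf1, 6 passed the test upward and 4 downward. Xaf1, an interferon-induced partner of the inhibitor of apoptosis XIAP, was at 7.15, 7.16 and 7.32 against 4.02, 3.77 and 3.65, a rise of 3.39 ± 0.93 (adjusted p 0.00782). Among 15 tested p53 targets, 1 was called lower. Plk2 lay at 2.63, 3.25 and 3.44 in KO and at 5.87, 5.62 and 5.85 in NTC, and fell by 2.67 ± 0.42 (adjusted p 2.31e-05). Cdkn1a, which halts the cell cycle, was at 6.97, 7.80 and 7.94 against 8.00, 8.21 and 7.92, overlapping, with a difference of -0.47 (adjusted p 0.172).

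**Figure D3:**
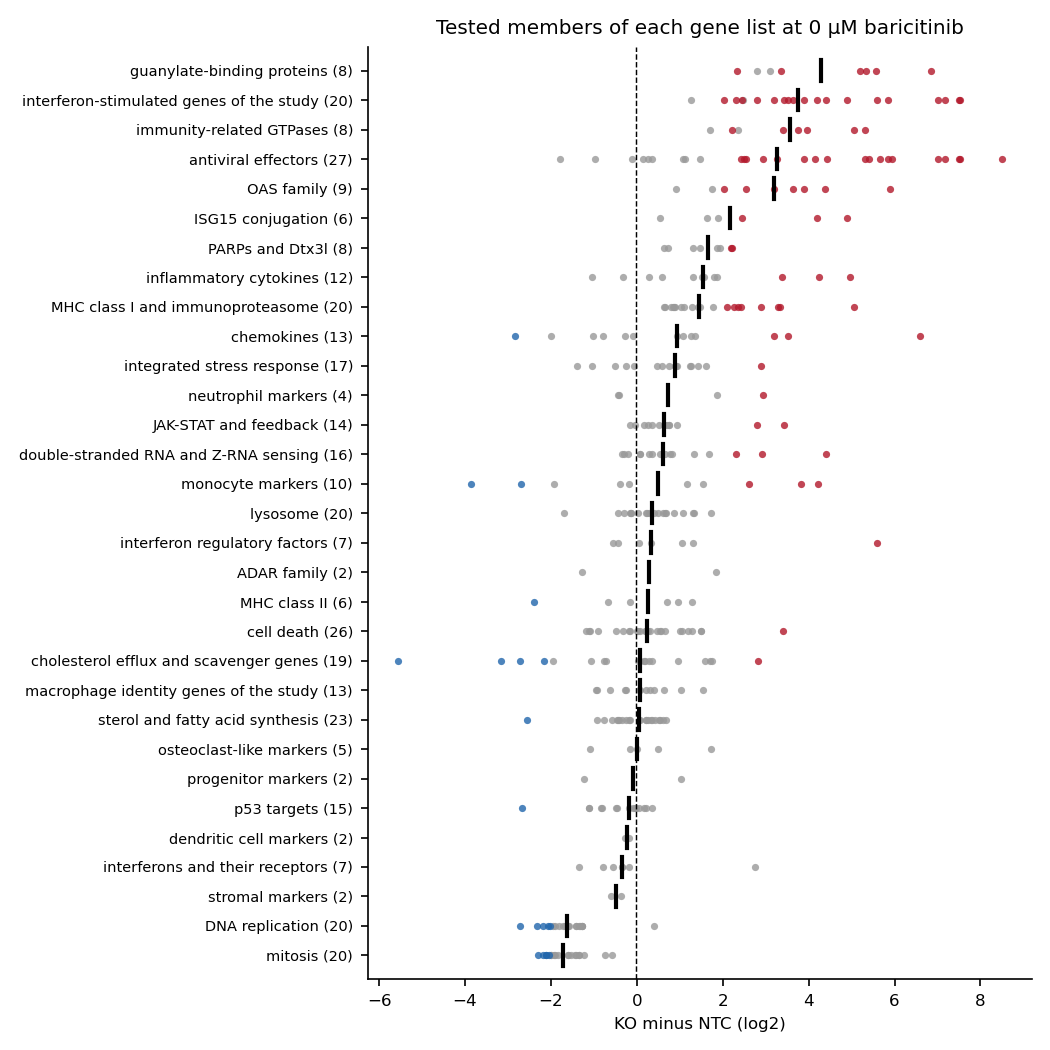
Each point is a tested member of a gene list, placed by its KO minus NTC difference at 0 µM (x, log2 units), with called members coloured, a black bar at the list median and a dashed line at the median of all genes. The study ISGs have a median of 3.76, the mitosis list of -1.71 and the DNA replication list of -1.63.

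Genes of cell division were lower in KO. Of 20 tested mitosis genes, 5 were called lower and 17 passed the test downward, with a median of -1.71. Their summed level was 289, 355 and 419 CPM in KO and 916, 1350 and 1140 CPM in NTC. Mki67, the marker of cycling cells, lay at 3.83, 4.67 and 4.52 in KO and at 6.44, 6.88 and 6.57 in NTC. All KO values were lower, by 2.29 ± 0.37 (adjusted p 4.17e-05). Kif11, the motor that separates spindle poles, was at 3.46, 3.79 and 4.22 against 5.80, 6.25 and 5.99, and fell by 2.19 ± 0.38 (adjusted p 8.78e-05). Of 20 tested DNA replication genes, 5 were called lower and 19 passed the test downward, with a median of -1.63. Rrm2, a subunit of the enzyme that makes deoxyribonucleotides, was at 5.51, 6.35 and 6.81 in KO and at 8.43, 8.72 and 8.53 in NTC, without overlap. Its fall was 2.33 ± 0.45 (adjusted p 0.000321). Mcm6, part of the replicative helicase, was at 3.72, 4.58 and 4.80 against 8.01, 6.27 and 6.98, and was lower by 2.72 ± 0.56 (adjusted p 0.000648). E2f1, named after its values were seen, moved the other way, by 0.40 (adjusted p 0.038, and up to 0.117 under the alternatives). Several of these calls lie near the size limit and were lost under some of the alternatives tried.

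The sequences upstream of Mki67 and Kif11 are printed because both fell and hold TTTGAA (or TTCAAA on the other strand), the core of the cell cycle homology region that the DREAM complex uses in mitotic genes. Mki67 is at chr7:135716380-135716524, minus strand, with cores 116 and 98 bases before the start. Kif11 is at chr19:37376237-37376381, plus strand, with a core 19 bases before it. The core occurred in 17.9% of all windows, in 15.0% of tested genes with a window and in 11 of 17 mitosis genes with one (64.7%). It occurred in 2 of 16 DNA replication genes (12.5%), 23.2% of genes called higher and 18.8% of genes called lower, the called sets being under 80% matched. This describes sequence and shows neither a site in use nor a cause.
Mki67: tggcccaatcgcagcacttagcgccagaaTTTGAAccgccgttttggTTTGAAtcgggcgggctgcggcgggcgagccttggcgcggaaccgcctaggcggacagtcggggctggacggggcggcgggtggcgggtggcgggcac
Kif11: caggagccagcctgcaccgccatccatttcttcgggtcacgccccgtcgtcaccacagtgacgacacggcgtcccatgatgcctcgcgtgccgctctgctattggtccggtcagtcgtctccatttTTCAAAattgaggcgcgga

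Receptors and enzymes of lipid handling were split. Of 19 tested genes of scavenging and cholesterol efflux, 1 was called higher and 4 lower, with a median of 0.07. Cd5l, a secreted scavenger protein of tissue macrophages, was at -1.21, -2.78 and -2.21 in KO and at 3.09, 3.71 and 3.69 in NTC. All KO values were lower, a difference of -5.56 ± 0.38 (adjusted p 1.62e-11). Cd36, which takes up oxidised lipoprotein and fatty acids, was at 5.99, 5.46 and 5.85 against 8.76, 8.90 and 9.08, and fell by 3.15 ± 0.27 (adjusted p 8.74e-10). Cd163, the receptor for haptoglobin with haemoglobin, was at -1.48, 0.04 and -0.62 against 1.89, 2.00 and 2.21, lower by 2.72 ± 0.47 (adjusted p 8.16e-05). Lpl, lipoprotein lipase, fell by 2.15 ± 0.16 (adjusted p 4.24e-11), from 11.55, 11.73 and 11.82 in NTC to 9.33, 9.59 and 9.72 in KO. Abca1, the cholesterol exporter, was at 3.24, 3.07 and 2.71 in KO and at 0.43, 0.64 and -0.49 in NTC. It rose by 2.81 ± 0.64 (adjusted p 0.00163), the only member of that list called higher.

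Of 20 tested lysosomal genes, none was called by limma, while 8 passed its test upward and 2 downward, with a median of 0.35. Ctsd (cathepsin D), an aspartyl protease, was at 15.41, 14.75 and 14.52 in KO and at 13.89, 13.68 and 13.88 in NTC. Its KO values were all higher, by 1.08 (adjusted p 0.0012). Under the alternatives the difference of Ctsd went down to 0.58 and its adjusted p up to 0.12. Psap, which encodes activators of sphingolipid breakdown and was named after its values were seen, rose by 1.73 (adjusted p 5.2e-07). It went from 12.93, 12.68 and 12.83 to 14.58, 14.54 and 14.51, and its difference was down to 1.02 under the alternatives. The osteoclast-like list had no call by limma among 5 tested, and 1 member passed its test upward. Atp6v0d2, a proton pump subunit, was at 7.86, 7.30 and 7.41 in KO and at 5.70, 5.56 and 6.10 in NTC, higher by 1.74 ± 0.41 (adjusted p 0.0024), while Calcr was at 0 CPM.

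Monocyte genes also moved in both directions, with 3 of 10 called higher. Ly6c2, a surface marker of inflammatory monocytes, was at 8.85, 8.37 and 8.31 in KO and at 4.20, 4.29 and 4.38 in NTC. The groups stood 4.22 ± 0.42 apart (adjusted p 1.94e-08), with near copies in the Ly6 family. Chil3, a secreted chitinase-like protein, was at 7.32, 7.34 and 7.49 against 3.79, 3.20 and 3.67, higher by 3.83 ± 0.23 (adjusted p 1.97e-12). Ccr2, the receptor that takes monocytes out of the marrow, was at 3.09, 4.53 and 5.11 in KO and at 7.94, 8.22 and 8.11 in NTC, without overlap. It fell by 3.85 ± 0.42 (adjusted p 9.56e-08).

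Among the genes with the largest differences, several lie outside these lists. Ly6a (Sca-1) was at 6.69, 6.98 and 6.98 in KO and at -0.15, -0.78 and -2.23 in NTC. It rose by 7.93 ± 1.03 (adjusted p 1.67e-06), with Ly6 copies as a caution. Atp1b2, a subunit of the sodium and potassium pump, was at 5.30, 6.42 and 6.57 against -0.05, -1.57 and -1.63, higher by 7.18 ± 0.60 (adjusted p 7.69e-10). Ttyh3 was at 5.25, 2.50 and 2.98 in KO and without reads in NTC (adjusted p 0.0172). The call was lost without KO replicate 1, where the difference fell from 6.36 to 3.71 (adjusted p 0.082), and at 0.0006 µM Ttyh3 ranged from no reads to 3.54 within NTC and to 4.08 within KO. Ncam2, an adhesion protein, was at -1.19, -1.51 and -1.78 in KO and at 5.90, 6.08 and 6.08 in NTC. Its groups were 7.51 ± 0.39 apart (adjusted p 7.97e-14), KO being the lower, the largest negative difference of the comparison. Pls3, an actin bundler, was at 3.81, 4.06 and 4.49 against 8.77, 9.07 and 9.01, with a difference of -4.83 ± 0.19 (adjusted p 3.23e-16). Colec12, a scavenger receptor with a lectin domain, lay at 3.87, 4.27 and 4.43 in KO and at 8.68, 8.74 and 8.62 in NTC, a difference of -4.49 ± 0.20 (adjusted p 1.36e-15). Slco2b1, an organic anion transporter, had no reads in KO and lay at 2.50, 3.35 and 2.82 in NTC, at least 30.3-fold lower. S100a6, a calcium-binding protein, was at -0.31, 0.40 and 1.33 against 4.79, 4.66 and 4.61, lower by 4.22 ± 0.32 (adjusted p 1.05e-10).

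The lowest dose of baricitinib, titled 0.0006 µM and 0.00064 µM in the protocol, gave 3 KO and 3 NTC libraries that are separate from the 6 and share the variance estimate of the fit. At that dose 226 genes were called higher (2.03%) and 332 lower (2.98%). The genes called at both doses numbered 169 among the higher, which is 79.0% of the 214 and 74.8% of the 226, and 164 among the lower, 75.2% of the 218 and 49.4% of the 332. Ifit1 had a difference of 6.91 (adjusted p 0.000266) at 0.0006 µM, Ncam2 one of -7.03, and Mki67 one of -2.62 (adjusted p 5.14e-06). Mki67 lay at 4.93, 4.68 and 4.49 in KO and at 7.12, 7.36 and 7.47 in NTC. Of the 20 study ISGs 16 were called higher, and of the 20 mitosis genes 16 were called lower, with a median of -2.51. No gene had a KO difference that differed between the doses after adjustment by limma, and 801 did at an unadjusted p below 0.05.

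At 10 µM, the highest dose, 4 KO and 3 NTC libraries were compared, and 83 genes were called higher (0.744%) and 267 lower (2.39%). The difference between KO and NTC at 10 µM departed from that at 0 µM in 793 genes (7.11%), in 289 toward higher (2.59%) and in 504 toward lower values (4.52%). Of the genes called higher at 0 µM, 17 were called higher at 10 µM, 7.94% of the 214 and 20.5% of the 83, and for lower genes 52 were shared, 23.9% of the 218 and 19.5% of the 267. The 5 genes called higher at 0 µM and lower at 10 µM were Gm6736, H2-Q6, Mgll, Slamf7 and Tgm2. Tgm2, a transglutaminase, lay at -1.30, 0.36, 0.22 and -0.76 in KO and at 2.23, 1.88 and 1.98 in NTC at 10 µM, lower by 2.40 (adjusted p 2.57e-05), after a difference of 3.01 (adjusted p 8.76e-06) at 0 µM. The call at 0 µM was lost for Gm6736 in 8 of 15 alternatives (adjusted p up to 0.169) and for Slamf7 in 3 of the fits that left out a library (adjusted p up to 0.115). These genes were named after their values were seen, save H2-Q6.

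Interferon-stimulated genes were compared at 10 µM. None of the 20 study ISGs was called by limma there, the median was 0.10, and the change from 0 µM was called toward lower values in 13 of them. Ifit1 lay at 1.26, 1.00, 0.32 and 0.48 in KO and at -0.04, -0.28 and -1.21 in NTC, without overlap. Its difference of 1.27 (adjusted p 0.432) was a change of -5.91 ± 1.84 from 0 µM (adjusted p 0.0123). Both p values rest on the variance estimate that keeps the KO library at 0.4 µM, and values of Ifit1 at 10 µM without that library are not given. B2m had a difference of -0.40 at 10 µM, 2.51 ± 0.40 below that at 0 µM (adjusted p 2.18e-05). Adar was at 1.55, 2.15, 2.91 and 2.03 in KO and at 3.70, 3.64 and 3.22 in NTC. Every KO value was now the lower, by 1.36 ± 0.45 (adjusted p 0.0146), and the change from 0 µM was -3.21 ± 0.66 (adjusted p 0.000369). Mki67 was at 8.69, 9.35, 9.22 and 8.90 in KO against 8.09, 8.40 and 7.74 in NTC, higher by 0.97 (adjusted p 0.0256), a change from 0 µM of 3.25 ± 0.51 (adjusted p 1.7e-05). Of the 20 mitosis genes, limma called none at 10 µM and called the change higher in 12.

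At 10 µM Ncam2 had a difference of -7.44, a change of 0.07 from 0 µM (adjusted p 0.933). Atp1b2 had one of 6.40, and its change of -0.78 did not pass the test (adjusted p 0.483). Colec12 stood at -3.56 and Cd36 at -4.48, against -4.49 and -3.15 at 0 µM. Cd5l stood at -3.40, a change of 2.17 (adjusted p 0.00175). Ctsd, higher in KO at 0 µM, had a difference of -2.13 at 10 µM, and its change was -3.21 (adjusted p 4.58e-08).

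**Figure D4:**
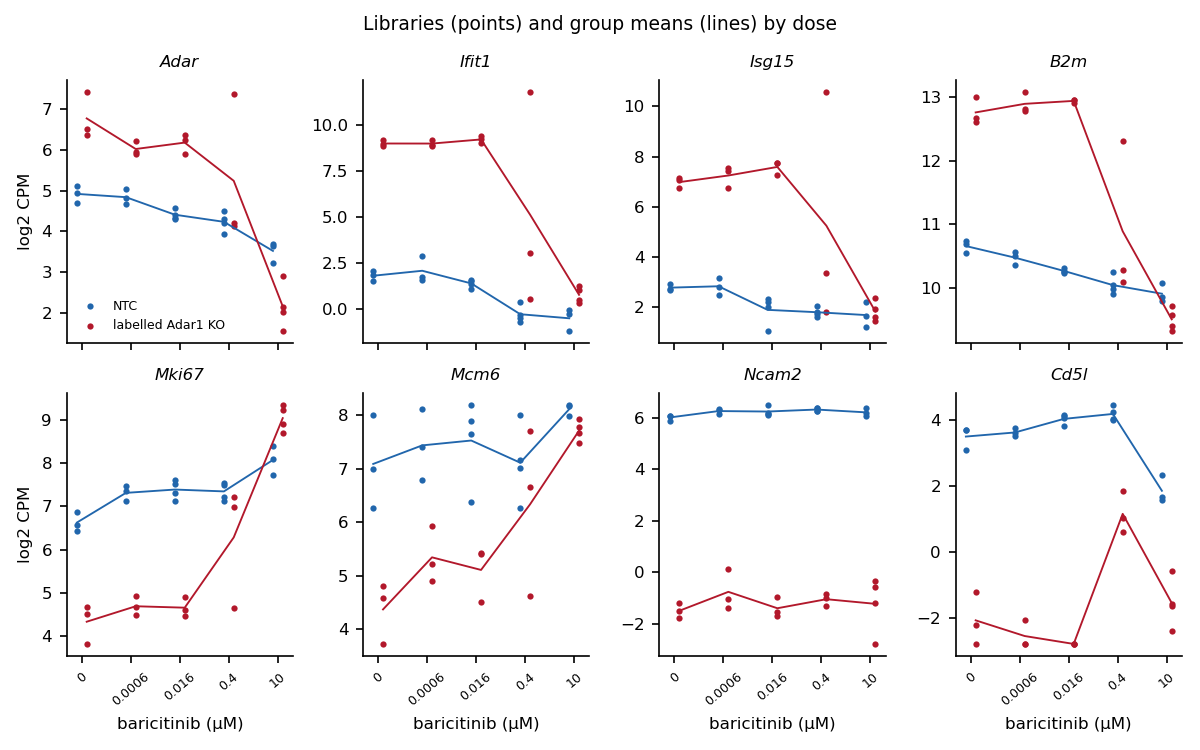
Points are the levels (y, log2 CPM) of 8 genes in each KO and NTC library at baricitinib doses of 0, 0.0006, 0.016, 0.4 and 10 µM (x), as in the sample titles, where the deposited protocol has 0.00064 and 0.16 µM for the doses titled 0.0006 and 0.016 µM. Ifit1 in KO lies at 8.83 to 9.15 at 0 µM and at 0.32 to 1.26 at 10 µM, Ncam2 in KO stays below NTC at 0 and 10 µM, and KO replicate 2 at 0.4 µM stands apart.

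The earlier experiment holds 3 KO and 3 NTC libraries of macrophages of the same guides, normalised apart from the dose series and sequenced elsewhere, so that experiment and normalisation cannot be told apart. NTC replicate 2 was left out because its lowest value of -3.09, against -3.43 in the others, places it in another normalisation set, and 2 NTC libraries remain. In a fit of 44 libraries and 11665 genes, 359 genes were called higher (3.08%) and 115 lower (0.986%) in the earlier macrophages. Calls at 0 µM in the same fit were 223 higher and 223 lower. The genes called higher in both experiments numbered 132, which is 59.2% of the 223 and 36.8% of the 359, and 2 genes, Abca1 and Apoc1, were called in opposite directions. For genes called lower at 0 µM, 44 were called lower in the earlier macrophages, 19.7% of the 223 and 38.3% of the 115, and 31 were called higher there. The difference between KO and NTC itself differed between the experiments in 534 genes (4.58%), 115 toward higher values at 0 µM (0.986%) and 419 toward lower (3.59%). With the NTC library that was left out, the 534 became 576.

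Interferon-stimulated genes were higher in both experiments, and genes of cell division went in opposite directions. Of the study ISGs, 19 of 20 were called higher in the earlier macrophages, with a median of 4.43. Ifit1 was at 10.54, 10.19 and 9.27 in KO and at 4.03 and 3.87 in NTC, a rise of 6.05 (adjusted p 0.00133). Of the 20 mitosis genes, 17 were called higher in the earlier macrophages, with a median of 2.45, and the change between the experiments was called in 19. Mki67 lay at 4.42, 4.37 and 4.44 in KO and at 2.23 and 2.13 in NTC. It was higher in KO by 2.23 (adjusted p 3.92e-05), against a fall of 2.29 at 0 µM, a change of -4.52 ± 0.51 (adjusted p 3.01e-08). The NTC level of Mki67 at 0 µM was 6.44 to 6.88, and levels of separate normalisation sets are not compared by a test. Abca1 was at 2.51, 2.96 and 2.29 in KO and at 5.97 and 6.13 in NTC, a difference of -3.46 (adjusted p 0.000216), whereas it rose at 0 µM, a change of 6.28 ± 0.89 (adjusted p 2.27e-06). Ncam2 had a difference of -5.35 (adjusted p 1.91e-11) and Cd5l had a difference of -5.78. Cd36, lower at 0 µM, had a difference of 0.01, and its change was -3.16 (adjusted p 0.00249).

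**Figure D5:**
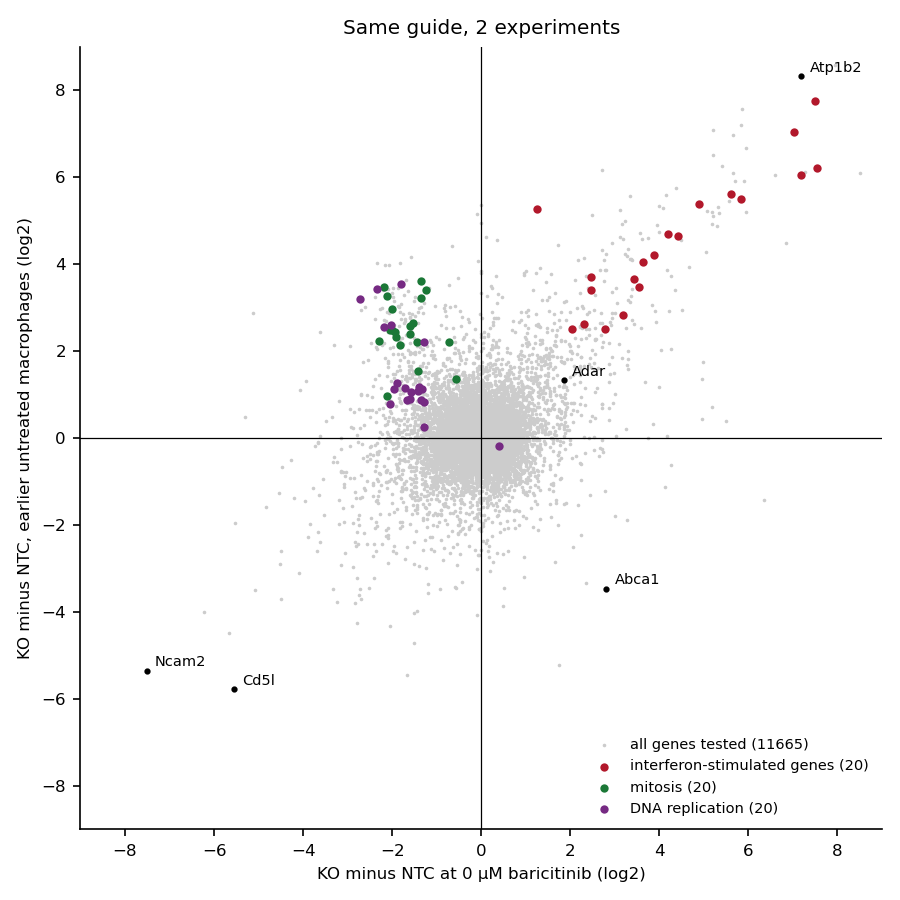
Each of 11665 points is a gene, placed by its KO minus NTC difference at 0 µM (x, log2 units) and in the earlier macrophages (y, log2 units), with the study ISGs, mitosis genes and DNA replication genes coloured. The ISGs lie high on both axes, while Mki67 and the other mitosis genes lie left of 0 and above it (-2.29 and 2.23 for Mki67).

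Progenitors of the earlier experiment, sampled before differentiation, had 3 libraries of each guide. There 9 genes were called higher (0.0772%) and 22 lower (0.189%). The difference between KO and NTC at 0 µM differed from that in progenitors in 362 genes (3.10%), 189 toward higher values (1.62%) and 173 toward lower (1.48%). Ifit1 lay at -0.78, -1.22 and -1.86 in KO progenitors and at -0.97, 0.20 and -0.12 in NTC, a difference of -0.99, which is 8.17 below that at 0 µM (adjusted p 0.00145 for the change). Limma called none of the study ISGs in progenitors, and their median was -0.18. The change was called in 11 of the 20, and its median over the 20 was 4.05. These calls rest on the variance estimate that keeps the KO library at 0.4 µM. Without that library 430 genes were called for the change, 244 of them toward higher values, and the number of ISGs among them is not given. Mki67 was at 7.17, 7.17 and 7.21 in KO and at 7.36, 6.90 and 7.16 in NTC, overlapping, a difference of 0.04.

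Genes called higher both at 0 µM and in progenitors were Atp1b2, Plekhg5 and Stag3, 1.35% of the 223 and 33.3% of the 9. Those called lower in both numbered 12, 5.38% of the 223 and 54.5% of the 22, and included Ncam2, Pls3, Wbp5 (now Tceal9) and Ngfrap1 (now Bex3). Ncam2 lay at -1.90, -1.28 and -0.87 in KO progenitors and at 4.30, 5.14 and 5.19 in NTC, without overlap. It was lower by 6.22 (adjusted p 5.74e-14). Atp1b2 was at 3.76, 4.55 and 4.38 against -0.27, -0.08 and -0.31, higher by 4.45 (adjusted p 2.73e-06). Stag3, a cohesin subunit of meiosis named after its values were seen like Plekhg5, was at 5.54, 4.79 and 5.41 against 2.67, 1.39 and 1.98, higher by 3.23 (adjusted p 0.000671). Pls3 was lower by 4.11 in progenitors, while Colec12 had a difference of -0.24. Cd5l had a difference of 0.00 there. Its progenitor levels are not given, so an absence of reads in both groups is not told apart from an unchanged level.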

How the data were processed

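The authors quantified reads with Kallisto 0.46.0, summed transcripts to genes and deposited TMM-normalised log2 CPM in 1 table of 29957 rows. A single row lacks a gene symbol, was not tested, and holds at most 0.0116% of CPM in the 6 libraries. Its 92 value columns all name a sample, so 0 were left out. The deposited values were used as they stand. Of the deposited table, 33 libraries of the baricitinib series in 10 groups were fitted with limma 3.58.1 (R 4.3.3), with a mean-variance trend and adjustment over all genes tested, leaving 23 residual degrees of freedom and adding 4.17 prior ones. Genes above 1 CPM in at least 3 of the 33 libraries were tested. A second fit of 44 libraries in 14 groups added 11 libraries of the earlier experiment and left out NTC macrophage replicate 2, which belongs to another normalization set. The table joins 6 normalization sets, and the lowest value is -2.78 in the baricitinib series and -3.43 in the earlier experiment. CPM were obtained by removing the offset. Depth was estimated from the spacing of the lowest values at a prior count of 2, which gives a mean of 13.7 M counts, and 3 counts were taken as the floor, for counting error only.

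Genes are named by a rule of 150 (the targeted gene, the 15 largest differences without overlap in each direction, called members of the lists, the highest members of lists with fewer than 2 calls, and the 5 largest changes in each direction against 10 µM, the earlier macrophages and the progenitors). A further 22 were named after their values were seen. The members and the lists were chosen with earlier results of these data known. Lists of interferon-stimulated and macrophage identity genes come from the study and the rest from textbook knowledge. The alternatives tried were a higher CPM filter, another filter set, log2(CPM+1), quantile and median scaling, library weights, no trend, no filter, replicate as a block, a fold limit of 1, a fit of the 6 libraries alone, leaving out each library, and leaving out the KO library at 0.4 µM. Figures and promoter searches used Python 3.11.15. Some results on single genes are not reported here.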

Additional observations from a re-analysis of the deposited data

Results flagged for a closer look

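Differences between KO and NTC that themselves differed between sets of libraries numbered 793 genes for 10 µM against 0 µM, 534 for 0 µM against the earlier macrophages and 362 for 0 µM against the earlier progenitors.

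Among genes called for 10 µM minus 0 µM, the largest negative changes in log2 units were I830012O16Rik with -8.12, Ifi44 with -7.8, Ly6a with -7.4, Ms4a4c with -6.88 and Ccl5 with -6.82. The largest positive changes were Rpl10a-ps1 with 6.96, Pfkfb4 with 6.27, Tdp2 with 6.24, Gm10033 with 6.1 and Fam105a with 6.05. Of these, Rpl10a-ps1, Tdp2 and Fam105a were not called at 0 µM. Pfkfb4 and Gm10033 lost their call at 0 µM in 4 leave-one-out fits each, with adjusted p up to 0.0845 and 0.109, and 1 KO library of Gm10033 lay 4.62 log2 units from the others.

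Among genes called for 0 µM minus the earlier macrophages, the largest negative changes were Ambp with -6.36, Neil3 with -6.13, Fam105a with -6.05, Mcm6 with -5.91 and Kif4 with -5.85. The largest positive changes were Ttyh3 with 7.79, Abca1 with 6.28, Apoc1 with 5.67, Entpd1 with 5.16 and Tsc2 with 4.89. The call at 0 µM was lost in 1 leave-one-out fit for Ttyh3, in 2 for Neil3 and in 3 for Tsc2, and neither Fam105a nor Kif4 was called at 0 µM.

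Among genes called for 0 µM minus the earlier progenitors, the largest negative changes were S100a6 with -5.61, Cd5l with -5.56, St3gal5 with -5.52, Efr3b with -5.3 and Slco2b1 with -5.29. The largest positive changes were Ifit1 with 8.17, I830012O16Rik with 8.16, Ly6a with 7.89, Ifi44 with 7.39 and Rsad2 with 7.22.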

How the results depend on the processing

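At 0 µM the 432 called genes became 263 with a mean CPM above 5, 250 on log2(CPM+1) (155 higher and 95 lower) and 1259 with a fold limit of 1. Leaving out 1 of the 6 libraries gave 393 to 470 calls and kept 350 to 399 of the 432. A fit of the 6 libraries alone gave 379. With the replicate number of the titles as a block the fit gave 433 calls, or 376 on the 6 libraries.

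At 0.0006 µM the 558 calls became 352 with a mean CPM above 5, 334 on log2(CPM+1) and 1448 with a fold limit of 1. For the change from 0 to 10 µM the 793 calls became 513 on log2(CPM+1) and 2635 with a fold limit of 1. For the change against earlier macrophages the 534 calls became 346 on log2(CPM+1) and 1323 with a fold limit of 1, and the median of all genes moved from -0.08 to 0.04 with median centring. Including the NTC macrophage library of another normalisation set gave 576 calls and a median of -0.13. For the change against progenitors the 362 calls became 207 on log2(CPM+1) (64.3% higher), 236 with a mean CPM above 5 and 821 with a fold limit of 1, where the share called higher went from 52.2 to 41.7%. None of the named genes called at 0 µM changed direction.

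Of the 120 named genes called at 0 µM, 84 were called under every alternative. Calls lost under at least 1 include Cxcl10, Oas2, Oas3, Ifih1, Ttyh3, B2m, Lpl, Rrm2, Cd163, Cxcl16, H2-Ob and Lcn2.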

Other observations

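10 called genes have a library more than 3 log2 units from the others of its group.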
